A study of Mus musculus with 43 samples.

Results

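Dact1, Nrn1, Spock1, Fat3, Slc30a10, Perp, Ghr, D930028M14Rik and Zfp811 are 9 genes, of the 56980 in the count table, that had moved the same way in both female and male Cux1 KO L2/3 neurons at E19, 7 of them higher than in WT neurons and 2 (Spock1 and Fat3) lower. They were chosen from that contrast, so their E19 values in Cux1 KO and WT neurons are given as a description and carry no test. What the choice did not use is how the same genes behaved in Cux2 KO neurons, at P4 with a different Cux1 allele, and in WT neurons between P4 and P7. All 9 genes were found in the table by name.

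CUX1 and CUX2 are homeodomain transcription factors that mark the upper layers of the cerebral cortex, where they act in the growth of dendrites, spines and axons. CUX1 is also known as the CCAAT displacement protein, after the promoter element it was found to occupy, and it can lower or raise transcription. The 9 genes do not form a single pathway. DACT1 is a Dishevelled-binding modulator of Wnt signalling, and NRN1 (neuritin) is a lipid-anchored surface protein, induced by neuronal activity, that promotes neurite growth. SPOCK1 (testican-1) is a secreted proteoglycan, and FAT3 is an atypical cadherin that shapes dendrites. SLC30A10 exports manganese, GHR is the growth hormone receptor, and PERP is a membrane protein of cell junctions encoded by a p53 target gene. Zfp811 encodes a zinc finger protein, and D930028M14Rik is a long non-coding RNA.

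GFP-positive L2/3 neurons had been labelled by in utero electroporation of a GFP plasmid into E15.5 progenitors of C57BL/6JRccHsd mice and their mutants, and were collected by FACS from the somatosensory cortex for bulk RNA-seq. At E19 the groups were WT, the germline mutant Cux1 ΔC/ΔC, which dies around birth, and the germline mutant Cux2 -/-, each with 4 female and 4 male libraries. At P4 there were 3 female and 3 male libraries of WT and of Cux2 -/- neurons, and 2 male libraries of Cux1 KO neurons. These P4 Cux1 KO neurons came from Cux1 f/Δ23 mice in which a CRE plasmid, given with a CRE-dependent GFP plasmid, had made Cux1 Δ23/Δ23 cells among heterozygous ones. WT P4 neurons received no CRE, so the effects of CRE, of the heterozygous surroundings and of the lost allele cannot be told apart. At P7 only WT neurons were present, with 2 female and 3 male libraries. The E19 libraries were sequenced in a first round, and the P4 and P7 libraries in a second, so stage and round cannot be told apart between E19 and P4. The study reports more death of Cux1 KO neurons during dissociation. The labels do not say whether libraries came from separate animals or litters, so p-values measure the spread between these libraries.

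The 24 libraries of E19 held 13321095 to 20715732 counts each, the 14 of P4 held 19499125 to 60559585, and the 5 of P7 held 15312029 to 27633827. Upper-layer markers, a list that includes Cux1 and Cux2, summed to between 3390 and 4800 CPM (counts scaled to a common library size) in WT females at E19. Astrocyte and radial glia markers summed to 2170 to 2630 CPM in the same females. In WT males at P4 upper-layer markers summed to between 1030 and 1200 CPM. Markers of astrocytes and radial glia (3680 to 5370 CPM), the oligodendrocyte lineage (2450 to 3370 CPM) and interneurons (352 to 551 CPM) were also present there. Reads over the whole Cux1 gene cannot check the deleted part. They stood at 288 to 350 CPM in Cux1 KO and 346 to 506 CPM in WT females at E19, and at 310 to 378 and 312 to 467 CPM in males. The 2 Cux1 KO libraries at P4 stood apart: of 16939 genes with a mean of at least 1 CPM, 17.2% and 11.2% had no more than 3 counts in them, against 0.939% to 6.25% in the other P4 libraries. At E19, over the 16305 genes with such a mean at that stage, the share was at most 0.393%.

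The promoters of 5 of the genes are shown because CUX1 is named after the CCAAT element: Dact1, Slc30a10 and Ghr, which were higher in Cux1 KO neurons at E19 and carry CCAAT on the gene's own strand, and Spock1 and Fat3, which were lower and carry none. They were picked for this difference, and D930028M14Rik is an exception to it, since it was higher and carries no CCAAT, while Nrn1 and Perp were higher and carry it on the opposite strand alone. Each is the 250 bases before the start of the gene's main (canonical) annotated transcript in GRCm39, read on the gene's strand, with CCAAT or its reverse complement ATTGG in capitals. The windows are chr12:71356293-71356542 (plus strand), chr1:185186723-185186972 (plus), chr15:3613025-3613274 (minus), chr13:58056147-58056396 (minus) and chr9:16412582-16412831 (minus).
Dact1: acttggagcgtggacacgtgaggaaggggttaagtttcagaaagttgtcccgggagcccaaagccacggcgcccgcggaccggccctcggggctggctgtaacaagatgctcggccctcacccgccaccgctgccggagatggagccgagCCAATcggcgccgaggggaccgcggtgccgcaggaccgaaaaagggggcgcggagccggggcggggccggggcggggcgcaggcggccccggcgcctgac
Slc30a10: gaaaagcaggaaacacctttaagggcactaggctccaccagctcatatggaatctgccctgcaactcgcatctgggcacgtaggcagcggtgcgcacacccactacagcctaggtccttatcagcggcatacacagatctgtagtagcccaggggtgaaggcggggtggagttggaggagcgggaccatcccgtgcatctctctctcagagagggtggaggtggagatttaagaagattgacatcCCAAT
Ghr: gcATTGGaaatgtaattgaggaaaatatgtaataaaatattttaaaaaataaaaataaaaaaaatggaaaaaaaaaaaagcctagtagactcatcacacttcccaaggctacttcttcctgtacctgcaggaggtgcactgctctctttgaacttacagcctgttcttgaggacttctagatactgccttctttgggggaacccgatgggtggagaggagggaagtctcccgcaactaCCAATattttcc
Spock1: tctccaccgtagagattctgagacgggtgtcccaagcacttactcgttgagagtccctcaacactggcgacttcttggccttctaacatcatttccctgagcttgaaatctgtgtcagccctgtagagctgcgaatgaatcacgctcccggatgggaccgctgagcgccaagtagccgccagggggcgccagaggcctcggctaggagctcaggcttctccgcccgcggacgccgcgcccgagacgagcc
Fat3: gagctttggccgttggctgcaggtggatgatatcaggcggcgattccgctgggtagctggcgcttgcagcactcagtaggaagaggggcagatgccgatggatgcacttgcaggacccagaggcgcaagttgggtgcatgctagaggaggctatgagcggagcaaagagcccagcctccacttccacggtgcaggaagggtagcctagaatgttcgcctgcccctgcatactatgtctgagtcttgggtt
On the gene's strand, CCAAT began 100 bases before the start of Dact1, 5 before Slc30a10, 12 before Ghr and 57 before the main transcript of Zfp811. On the opposite strand it was found in Nrn1 and Perp, and a second time in Ghr. For Zfp811 and Nrn1 another annotated transcript starts further upstream, so that the window of Zfp811 (chr17:33028906-33029155) overlaps the gene's span and that of Nrn1 (chr13:36918467-36918716) lies within it. With these windows, 6 of the 9 promoters held CCAAT on either strand, and 36.5% of 21770 promoters of protein-coding genes held it in a window of the same length. ATCGAT, a palindromic motif also linked to CUX factors, was in none of the 9 and in 0.781% of those promoters. A match of these letters is a description of the sequence, and binding was not measured.

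The genes lie on 8 chromosomes. Dact1 spans chr12:71356543-71366881 on the plus strand, Nrn1 chr13:36909335-36919156 and Spock1 chr13:57569008-58056146 on the minus strand. Fat3 spans chr9:15821485-16412581 on the minus strand, Slc30a10 chr1:185186973-185200959 and Perp chr10:18720715-18732821 on the plus strand. Ghr spans chr15:3347235-3613024 and Zfp811 chr17:33014650-33028952 on the minus strand, and D930028M14Rik chr7:24851828-24856055 on the plus strand. Per kilobase of exon, Zfp811 was the most abundant of them in WT neurons at E19 with 14.6 RPKM, followed by Dact1 (9.48 RPKM), Nrn1 (6.96 RPKM), Slc30a10 (6.06 RPKM), Spock1 (4.67 RPKM), Fat3 (2.24 RPKM), Perp (1.7 RPKM), D930028M14Rik (0.92 RPKM) and Ghr (0.197 RPKM). Ghr, lowest on this scale at E19, was at a level above that of 24.8% of genes, and Zfp811 above 82.9%. These shares are of the genes kept by a filter on low counts over the 43 libraries.

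Among the genes of Wnt signalling and neurite growth, Dact1 was about 2 times as high in Cux1 KO neurons at E19. It stood at 78.1, 70.1, 79.1 and 84.5 CPM in the Cux1 KO females and at 34.5, 35.3, 34.7 and 48.7 CPM in the WT females. The male values were 90.9, 82.5, 63.3 and 98.0 CPM in Cux1 KO and 38.3, 36.9, 30.2 and 36.9 CPM in WT neurons. Every Cux1 KO library was above every WT library of its sex, and the log2FC was 1.03 ± 0.116 (SE) in females and 1.20 ± 0.131 in males. Nrn1 was at 29.9, 34.0, 34.7 and 33.5 CPM in Cux1 KO females against 18.1, 19.2, 15.4 and 19.7 CPM in WT females. In males the Nrn1 values were 34.0, 43.4, 31.2 and 33.2 CPM against 21.7, 19.6, 19.7 and 18.8 CPM. Again no libraries overlapped, with a log2FC of 0.87 ± 0.114 in females and 0.79 ± 0.127 in males.

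Spock1 and Fat3, the genes of the matrix and of cell adhesion, were lower. Spock1 was at 19.3, 18.5, 15.2 and 17.1 CPM in Cux1 KO females, and at 35.5, 36.9, 21.8 and 56.9 CPM in WT females. Male neurons had 24.4, 10.7, 16.5 and 14.3 CPM in the Cux1 KO and 42.5, 32.2, 54.7 and 32.0 CPM in WT neurons. The Cux1 KO libraries lay below all WT libraries in both sexes, although the WT values spread widely (log2FC -1.09 ± 0.217 in females and -1.32 ± 0.232 in males). Fat3 differed from the other 8 genes in that its libraries overlapped. It was at 23.6, 20.5, 30.5 and 26.4 CPM in Cux1 KO females and 44.5, 54.8, 27.5 and 45.3 CPM in WT females, where the third WT library fell inside the range of the mutants. Among males it was at 43.1, 25.9, 26.7 and 28.8 CPM in Cux1 KO and 72.0, 48.6, 53.1 and 39.6 CPM in WT neurons, and the first mutant library was above the lowest WT one. Its log2FC was -0.76 ± 0.177 in females and -0.81 ± 0.190 in males.

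The transporter, receptor and junction genes were higher in Cux1 KO neurons. Slc30a10 was at 72.1, 63.9, 79.5 and 83.5 CPM in Cux1 KO females and 59.1, 47.8, 51.8 and 46.4 CPM in WT females. Male libraries were at 60.3, 84.2, 76.4 and 60.8 CPM against 45.7, 49.9, 29.5 and 43.2 CPM. Its log2FC of 0.54 ± 0.108 in females and 0.71 ± 0.165 in males lay just above the 0.5 that the study set for DEGs at E19. Ghr was a low gene, at 8.38, 5.73, 4.28 and 8.06 CPM in Cux1 KO females and 2.22, 0.901, 2.86 and 2.78 CPM in WT females. In males it was at 3.92, 5.15, 10.7 and 5.16 CPM against 0.466, 2.98, 0.807 and 2.93 CPM. All mutant libraries were above the WT ones, and the log2FC had wide errors (1.54 ± 0.327 in females and 1.73 ± 0.500 in males). Perp was at 7.6, 7.79, 6.53 and 11.7 CPM in Cux1 KO females and 4.5, 3.28, 2.42 and 4.76 CPM in WT females. In males the Perp values were 5.67, 7.54, 6.52 and 5.6 CPM against 3.15, 3.77, 1.99 and 3.36 CPM. These groups did not overlap either (log2FC 1.14 ± 0.245 in females and 0.99 ± 0.237 in males).

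The zinc finger gene and the non-coding gene were higher as well. Zfp811 was at 79.4, 76.6, 81.6 and 75.5 CPM in Cux1 KO females and 52.1, 46.6, 52.5 and 54.0 CPM in WT females. In males it was at 78.4, 75.0, 83.2 and 80.0 CPM against 55.2, 55.8, 51.1 and 52.0 CPM, for a log2FC of 0.61 ± 0.0867 in females and 0.53 ± 0.0799 in males. The non-coding gene D930028M14Rik was at 3.14, 5.92, 4.39 and 5.33 CPM in Cux1 KO females and 0.54, 0.258, 1.02 and 1.48 CPM in WT females. In males it was at 3.75, 3.49, 5.21 and 4.34 CPM against 1.28, 1.8, 1.37 and 1.43 CPM. Neither gene's groups overlapped, and D930028M14Rik had the largest log2FC of the 9 in females (2.35 ± 0.396, with 1.41 ± 0.256 in males). Thus 8 of the 9 genes were separated in both sexes, where 3.35% of 17376 genes were separated in females and 6.43% of 17362 in males, a count that the choice of these genes fixes. The adjusted p-value and fold thresholds were passed by 0.0576% of genes in females and 0.0979% in males. Beside these values, intermediate progenitor markers summed to 593 to 675 CPM in Cux1 KO and 385 to 505 CPM in WT females (410 to 612 and 349 to 526 CPM in males), and microglia markers to 45 to 63 and 73.1 to 98.3 CPM in Cux1 KO and WT males. Oligodendrocyte lineage markers summed to 399 to 605 CPM in Cux1 KO males and 601 to 745 CPM in WT males, with 6 of 7 at an unadjusted p under 0.05. Their part in the values was not tested. In sorted bulk RNA, fewer cells of a type and less RNA per cell cannot be told apart.

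**Figure D1:**
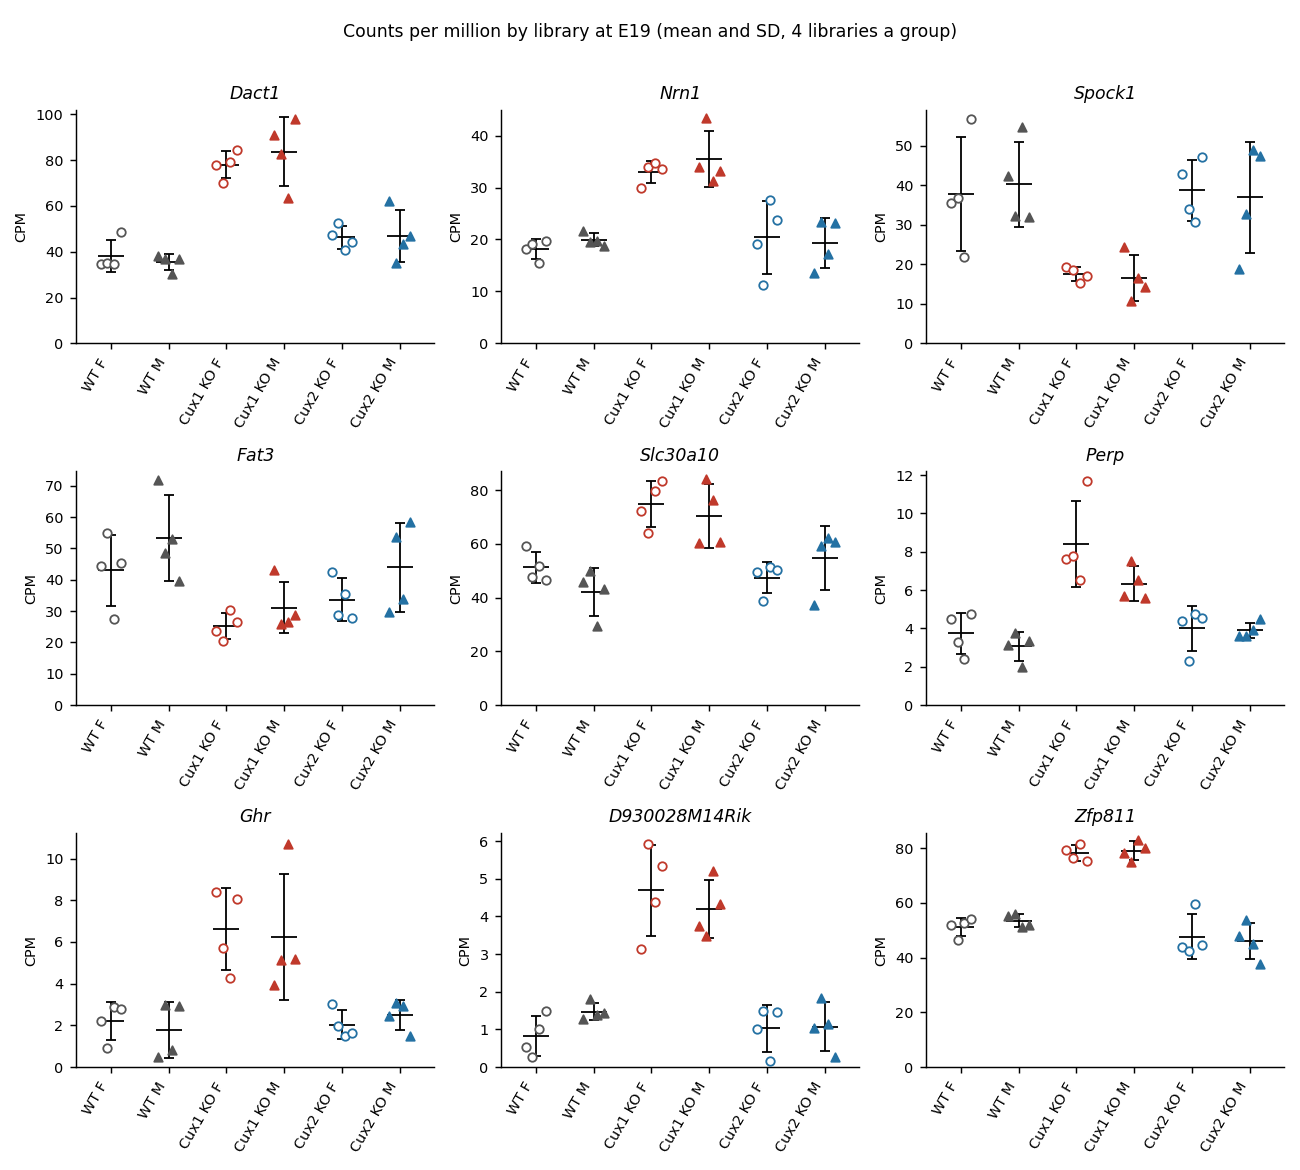
CPM of the 9 genes in each of the 24 E19 libraries, by genotype and sex (F, female, open circles, and M, male, filled triangles), with 1 point per library and bars for the mean and SD of each group of 4. Cux1 KO points lie apart from WT points in both sexes for all genes but Fat3, and Cux2 KO points overlap the WT points for all 9.

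Cux2 KO neurons at E19 were compared with the WT libraries that the choice of the genes had used, so both mutants share their controls and their values stand side by side. None of the 9 genes passed as a DEG in Cux2 KO neurons of either sex (edgeR quasi-likelihood test, Benjamini-Hochberg over all genes), where 0.0287% of 17436 genes in females and 0.121% of 17332 in males were DEGs. An unadjusted p under 0.05 was reached by 0 of the 9 genes in females, where 4.62% of all genes did, and by 1, Dact1, in males, where 7.94% did, and DESeq2 also called 0 in both. For each gene the Cux2 KO and WT libraries overlapped, while 3.07% of genes in females and 4.46% in males did not. Dact1 was at 40.7 to 52.5 CPM in Cux2 KO females and 35.1 to 62.1 CPM in Cux2 KO males, with a log2FC of 0.29 ± 0.138 (adjusted p = 0.977) and 0.38 ± 0.163 (adjusted p = 0.611) beside 1.03 and 1.20 in the Cux1 KO. Slc30a10 was at 38.9 to 51.4 CPM in females and 37.1 to 62.0 CPM in males (log2FC -0.10 and 0.36). Fat3 was at 27.7 to 42.6 CPM in females and 29.8 to 58.6 CPM in males, with fitted values of -0.34 ± 0.192 and -0.30 ± 0.224. Spock1, at 30.7 to 47.3 CPM and 18.8 to 48.9 CPM, had 0.06 and -0.15, beside -1.09 and -1.32 in the Cux1 KO.

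Nrn1 was at 11.2 to 27.6 CPM in Cux2 KO females and 13.5 to 23.3 CPM in males (log2FC 0.19 and -0.07). Zfp811 was at 42.6 to 59.8 CPM and 37.6 to 53.7 CPM (-0.09 and -0.23). Perp was at 2.28 to 4.75 CPM and 3.6 to 4.47 CPM (0.11 and 0.32), so that no Cux2 KO library reached the lowest Cux1 KO library of its sex. This was also so for Dact1, Nrn1, Zfp811, Ghr and D930028M14Rik, and for Slc30a10 in females alone. These genes were chosen for high values in those Cux1 KO libraries, which favours such a gap. The share of all genes with this gap was not computed, so it is a description. Ghr was at 1.47 to 3.04 CPM and 1.49 to 3.09 CPM (-0.10 and 0.43), and D930028M14Rik at 0.152 to 1.49 CPM and 0.271 to 1.84 CPM (0.28 and -0.43). The 9 genes had a median log2FC of 0.06 in Cux2 KO females and -0.07 in Cux2 KO males, beside 0.01 and -0.01 over all genes tested.

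**Figure D2:**
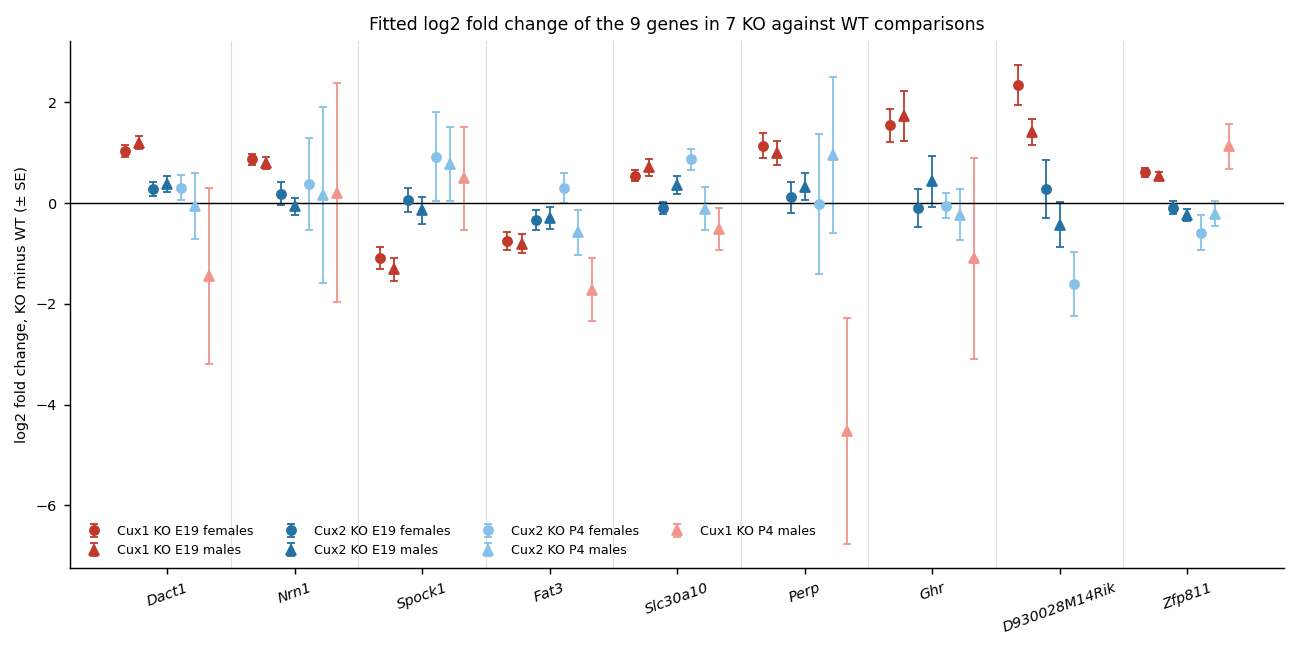
Fitted log2FC with its SE for the 9 genes in each comparison of a mutant with WT, by stage and sex (circles, females, and triangles, males). The E19 Cux1 KO values, which chose the genes, lie between -1.32 and 2.35, and the E19 Cux2 KO values between -0.43 and 0.43.

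At P4 the male Cux1 KO neurons carried another allele, Δ23/Δ23 made by CRE, and were compared with WT males that the choice had not used. By edgeR none of the 8 tested genes passed as a DEG there. The direction of the 6 tested genes that had been higher at E19 was mixed. The study reports Fat3 among the DEGs shared by Cux1 KO males at E19 and P4. By edgeR 0 of 19601 genes were DEGs (0%), although 4021 genes (20.5%) had an unadjusted p under 0.05 and DESeq2 with its fold change prior called 2273. Of the 9 genes, 8 passed the filter on low counts, 1 (Fat3) had an unadjusted p under 0.05, and DESeq2 called 1, again Fat3. Of the 6 tested genes that had been higher at E19, 2 had a value above 0 at P4, with a median of -0.81, where the median over all genes was -0.18 and 42.8% were above 0. Libraries of the 2 genotypes were separated for 41.7% of all genes.

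Fat3 was lower at P4, as it had been at E19, without passing the adjusted threshold of edgeR. It was at 4.57 and 6.32 CPM in the Cux1 KO males and 14.5, 10.5 and 28.7 CPM in the WT males, so the groups did not overlap. Its log2FC was -1.72 ± 0.628 (edgeR adjusted p = 0.222). With DESeq2 the value was -1.42 at an adjusted p of 0.0381, and with all P4 groups in one edgeR fit it was -1.71 at an adjusted p of 0.0364. Zfp811 was the other separated gene, at 57.8 and 23.8 CPM in Cux1 KO against 16.5, 17.6 and 21.3 CPM in WT males. Its log2FC was 1.13 ± 0.449 (edgeR adjusted p = 0.254), 0.36 without the first Cux1 KO library and 1.62 without the second. Slc30a10, at 26.9 and 35.6 CPM against 64.3, 30.3 and 38.1 CPM, had -0.51 ± 0.411 (edgeR adjusted p = 0.546). Spock1, lower at E19, was at 25.8 and 6.76 CPM against 7.08, 3.54 and 23.8 CPM, with 0.49 ± 1.02 (edgeR adjusted p = 0.846) and -0.77 without the first Cux1 KO library.

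Perp and D930028M14Rik were at 0 or 1 counts in both Cux1 KO libraries, and Dact1 and Ghr in the first of them alone. Dact1 had 1 count (0.0502 CPM) in the first Cux1 KO library and 327 counts, 7.57 CPM, in the second, within the 4 to 14.6 CPM of the WT males. Ghr had 0 counts in the first and 502 counts, 11.6 CPM, in the second, where WT males had 9.3, 19.7 and 8.27 CPM. Both genes had wide errors, -1.45 ± 1.75 for Dact1 (edgeR adjusted p = 0.707) and -1.10 ± 1.99 for Ghr (edgeR adjusted p = 0.818), with -0.48 and -0.11 when the first Cux1 KO library was left out. Perp had 0 and 1 counts in the Cux1 KO libraries, and 2.07, 1.7 and 0 CPM in WT males. As a ratio of summed counts this is 0.0135 of the WT level (95% interval 0.000339 to 0.076, exact binomial and for counting error only), yet the third WT library was at 0 too, and edgeR gave an adjusted p of 0.319. D930028M14Rik had 0 counts in both Cux1 KO libraries and in 2 of the 3 WT male libraries. It was not tested there. Nrn1 was at 4.37 and 1.11 CPM against 3.6, 3.42 and 0 CPM (0.20 ± 2.17, edgeR adjusted p = 0.973), and -1.06 without the first Cux1 KO library. In that first library 4 of the 9 genes had no more than 3 counts, in the second 2, and in the third WT male library 3 (Nrn1, Perp and D930028M14Rik).

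Several marker sums moved with genotype at P4. In Cux1 KO against WT males, upper-layer markers were at 1580 to 2030 against 1030 to 1200 CPM, interneuron markers at 82 to 162 against 352 to 551 CPM, and intermediate progenitor markers at 77.2 to 124 against 251 to 384 CPM. Oligodendrocyte lineage markers were at 1280 to 1400 against 2450 to 3370 CPM, microglia markers at 12.7 to 16 against 45.1 to 79.4 CPM, and mural cell and fibroblast markers at 47.3 to 94.4 against 273 to 465 CPM. The widest gap was in the ciliated ependymal markers, at 3.03 to 4.77 against 46.1 to 117 CPM (6 of 7 at an unadjusted p under 0.05), and endothelial markers were at 13.2 to 33.2 against 104 to 208 CPM. Cell cycle genes were at 404 to 992 against 1110 to 1340 CPM. Deep-layer markers overlapped, at 262 to 361 against 302 to 373 CPM. Astrocyte and radial glia markers overlapped as well, at 4630 to 7480 against 3680 to 5370 CPM. So did erythroid markers (0.553 to 413 against 206 to 490 CPM) and immediate early genes (772 to 847 against 723 to 1450 CPM). The part of these other cells in the levels of the 9 genes was not tested. Cux2 itself, counted with Cux1 in the upper-layer sum, was at 80.4 and 96.6 CPM in the Cux1 KO against 31.7, 31.4 and 46.4 CPM (log2FC 1.26 ± 0.261, edgeR adjusted p = 0.0905).

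**Figure D3:**
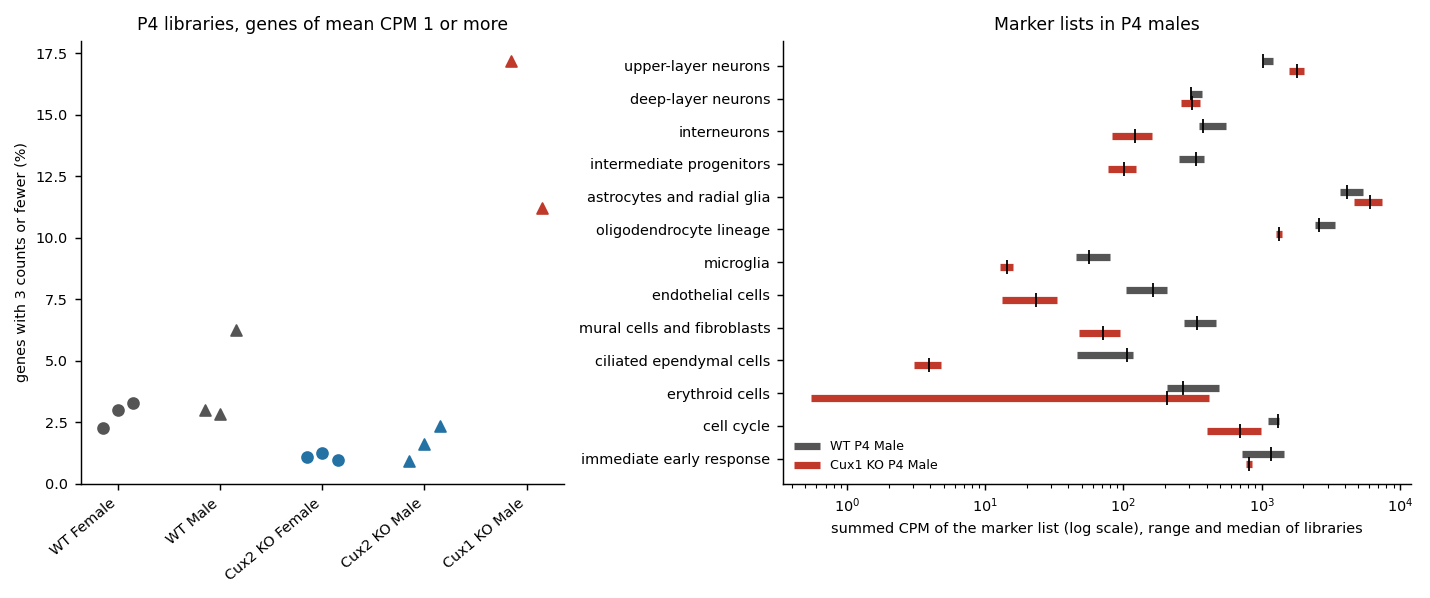
Left, percent of the 16939 genes with a mean of at least 1 CPM that had no more than 3 counts in each P4 library, and right, the range over libraries of the summed CPM of each marker list in WT and Cux1 KO males at P4 on a log axis, with a tick at the median. The Cux1 KO libraries, at 17.2% and 11.2%, lie above all others on the left, and their interneuron, oligodendrocyte and microglia sums lie below those of WT males on the right.

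In Cux2 KO neurons at P4, a germline mutant with 3 libraries per sex, none of the 9 genes passed the test either. In females edgeR called 0 of 19538 genes (0%), with 1443 (7.39%) at an unadjusted p under 0.05 and 42 DEGs by DESeq2. Of the 9 genes, 2 had an unadjusted p under 0.05 in females, Slc30a10 and D930028M14Rik, and DESeq2 called 0. Slc30a10 was at 45.5, 43.6 and 49.2 CPM in Cux2 KO females and 32.1, 24.5 and 19.2 CPM in WT females without overlap (log2FC 0.87 ± 0.213, edgeR adjusted p = 0.521). D930028M14Rik was at 0.715, 1.21 and 0.507 CPM against 1.37, 2.46 and 3.91 CPM, also without overlap (-1.61 ± 0.629, edgeR adjusted p = 0.663). These were the separated genes among the 9, where 15.9% of all genes were separated. The other 7 overlapped, with values of 0.31 for Dact1, 0.38 for Nrn1, 0.92 ± 0.888 for Spock1, 0.31 for Fat3, -0.02 for Perp, -0.05 for Ghr and -0.59 ± 0.341 for Zfp811.

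In males edgeR called 0 of 19720 genes (0%), with 1136 (5.76%) at an unadjusted p under 0.05 and 75 by DESeq2. There 8 of the 9 genes were tested, 0 had an unadjusted p under 0.05, and DESeq2 called 0. Perp alone was separated, at 2.19, 3 and 2.28 CPM against 2.07, 1.7 and 0 CPM (0.96 ± 1.55), where 12.5% of all genes were. Slc30a10 was at 30, 65.5 and 28.3 CPM in Cux2 KO males against 64.3, 30.3 and 38.1 CPM (-0.11), and these groups overlapped. The difference between the sexes in the Cux2 KO effect on Slc30a10 was -0.97 ± 0.508 (males minus females, interaction term, edgeR adjusted p = 0.700), the lowest adjusted p of the 9. For Fat3 it was -0.88 ± 0.562 (edgeR adjusted p = 0.739). The interaction was called by edgeR for 0 of 21878 genes (0%) and by DESeq2 for 273, and 1590 genes (7.27%) reached an unadjusted p under 0.05. Interneuron markers were at 318 to 575 CPM in Cux2 KO and 609 to 1180 CPM in WT females at P4, and mural cell and fibroblast markers at 357 to 396 and 140 to 188 CPM. Intermediate progenitor markers were at 341 to 395 and 453 to 557 CPM in these females. In males, ciliated ependymal markers were at 195 to 331 CPM in Cux2 KO and 46.1 to 117 CPM in WT neurons, with 6 of 7 at an unadjusted p under 0.05. Their part in these values was not tested.

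Because both mutants share WT controls, the Cux1 KO and Cux2 KO males at P4 were also set against each other. In this comparison 589 of 19741 genes (2.98%) were DEGs and 0 of the 8 tested genes, although 2 of them, Perp and Zfp811, had an unadjusted p under 0.05 (24.9% of all genes) and DESeq2 called 1, Perp. Zfp811 was at 57.8 and 23.8 CPM in the Cux1 KO against 13.2, 20.3 and 14.7 CPM in the Cux2 KO (1.35 ± 0.464, edgeR adjusted p = 0.161). Perp, with 1 count in all in the Cux1 KO and 325 in the Cux2 KO, was at 0.00575 of its level there as a ratio of summed counts (95% interval 0.000145 to 0.0323, counting error only). Its edgeR adjusted p was 0.0522. Fat3, at 4.57 and 6.32 against 9.78, 16.8 and 9.4 CPM, had -1.13 ± 0.479 (edgeR adjusted p = 0.237). These 3 genes were separated, as were 45.7% of all genes. With 1 library left out at a time, the fitted value ran from -5.51 to -4.86 for Perp and from -1.39 to -0.82 for Fat3. For Zfp811 it ran from 0.55 to 1.83. The DEGs of this comparison included 6 of 7 ciliated ependymal markers, from -3.21 for Cfap126 to -9.88 for Rsph1, and 3 of 9 microglia markers (C1qc, P2ry12 and Laptm5, from -6.99 to -8.13). Ciliated ependymal markers summed to 3.03 to 4.77 CPM in the Cux1 KO and 195 to 331 CPM in the Cux2 KO, and microglia markers to 12.7 to 16 and 65.7 to 151 CPM. Their part in the values of the 9 genes was not tested.

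**Figure D4:**
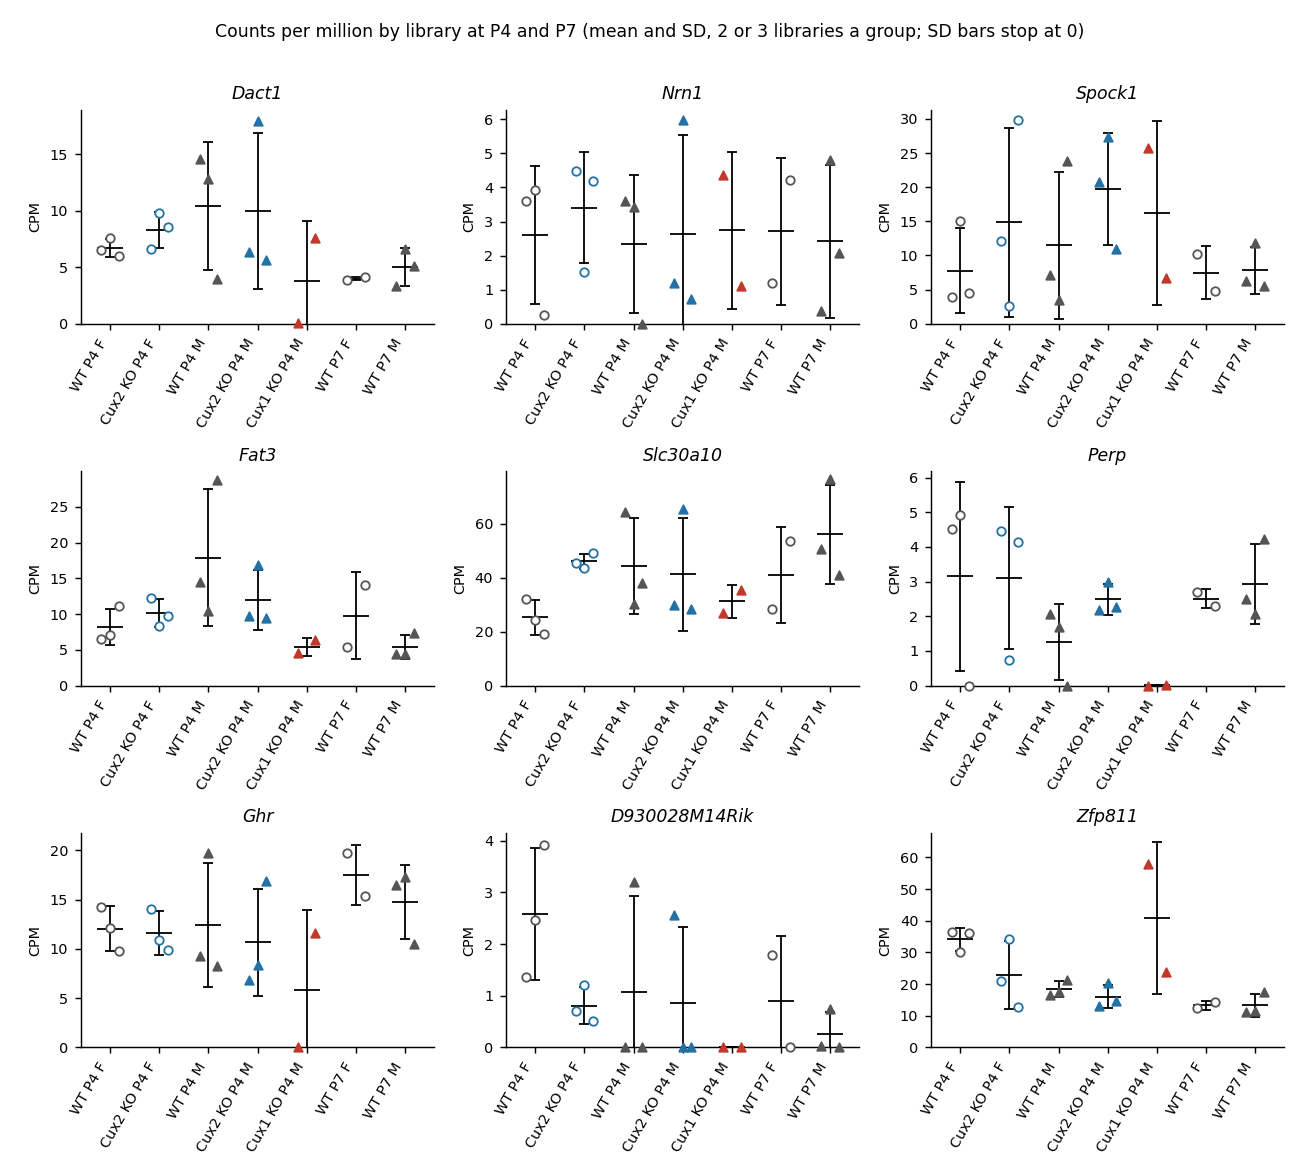
CPM of the 9 genes in the 14 P4 libraries and the 5 WT P7 libraries, by genotype and sex (F, female, open circles, and M, male, filled triangles), with 1 point per library and bars for the mean and SD, which stop at 0. The Cux1 KO males lie below all WT males for Fat3 and above them for Zfp811, and the mutant and WT points overlap for most other genes.

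In WT neurons the 9 genes took different courses. From E19 to P4, 7 of the 9 had a lower level, with a median log2FC of -1.04 where the median of all genes was 0.04. This is a description, since the WT E19 libraries helped to choose the genes, and 45.6% of 20091 genes passed the DEG thresholds between these stages. Nrn1 was at 15.4 to 21.7 CPM in the 8 WT libraries at E19 and 0 to 3.93 CPM in the 6 at P4 (-2.90), and Dact1 at 30.2 to 48.7 and 4 to 14.6 CPM (-2.11). Spock1 had -2.01, Fat3 -1.95, Zfp811 -1.04, Perp -0.72 and Slc30a10 -0.45. Ghr went the other way, from 0.466 to 2.98 CPM at E19 to 8.27 to 19.7 CPM at P4, a log2FC of 2.59. Thus the genes that were higher in Cux1 KO neurons at E19 included some that were lower in WT neurons at P4 (Dact1, Nrn1, Zfp811) and 1 that was higher (Ghr), all 4 without overlap between stages, as were 44.9% of all genes. D930028M14Rik had 0.61, with 0 counts in 2 of the 6 WT P4 libraries. Marker lists shifted between these stages too, with a median log2FC of -1.99 for upper-layer markers. The medians were 1.67 for astrocytes and radial glia, 1.69 for the oligodendrocyte lineage and 2.33 for endothelial cells. Deep-layer (-0.15) and microglia (0.08) lists had medians near 0. The part of these shifts in the values of the 9 genes was not tested.

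From P4 to P7, within the second round, none of the 9 genes passed both thresholds in edgeR or DESeq2, while 459 of 22385 genes (2.05%) did and 2 of the 9, Dact1 and Zfp811, had an unadjusted p under 0.05, as did 22% of all genes. The libraries of the 2 stages overlapped for all 9, while 6.83% of all genes were separated. Zfp811 was at 16.5 to 36.3 CPM in the 6 WT libraries at P4 and 11.1 to 17.4 CPM in the 5 at P7. Its log2FC of -0.87 ± 0.217 had an edgeR adjusted p of 0.0449 but missed the fold threshold of 1, and it became -1.04 and a DEG without the third P7 male (edgeR adjusted p from 0.0216 to 0.146 over the libraries left out). Dact1 was at 4 to 14.6 CPM and 3.33 to 6.63 CPM (-0.92 ± 0.337, edgeR adjusted p = 0.139), and -1.10 and a DEG without the third P4 male. Slc30a10 was at 19.2 to 64.3 CPM and 28.5 to 76.5 CPM (0.49 ± 0.262, edgeR adjusted p = 0.311). Ghr was at 8.27 to 19.7 CPM and 10.5 to 19.7 CPM (0.37 ± 0.261, edgeR adjusted p = 0.475). On the scale per kilobase of exon, Slc30a10 (6.3 RPKM) was the highest of the 9 at P7, above Zfp811 (3.68 RPKM), Ghr (1.6 RPKM) and Perp (1.36 RPKM). Fat3 was the lowest with 0.353 RPKM, and the order of Slc30a10 and Zfp811 was the reverse of that at P4 (4.51 and 7.3 RPKM). Markers of other cells moved with stage in these libraries. Of 9 microglia markers 8 were DEGs, all higher at P7 (median log2FC of the list 3.13), and their sum was at 45.1 to 81.4 CPM at P4 and 246 to 1360 CPM at P7. Higher DEGs also included Mbp and Cnp of the oligodendrocyte lineage, whose marker list summed to 737 to 3370 and 3990 to 5800 CPM, and 2 of 9 astrocyte markers (Gfap and Aqp4, with sums of 3680 to 6720 and 8140 to 12100 CPM). Upper-layer markers were at 979 to 1200 CPM at P4 and 621 to 871 CPM at P7. The part of these shifts in the values of the 9 genes was not tested.

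**Figure D5:**
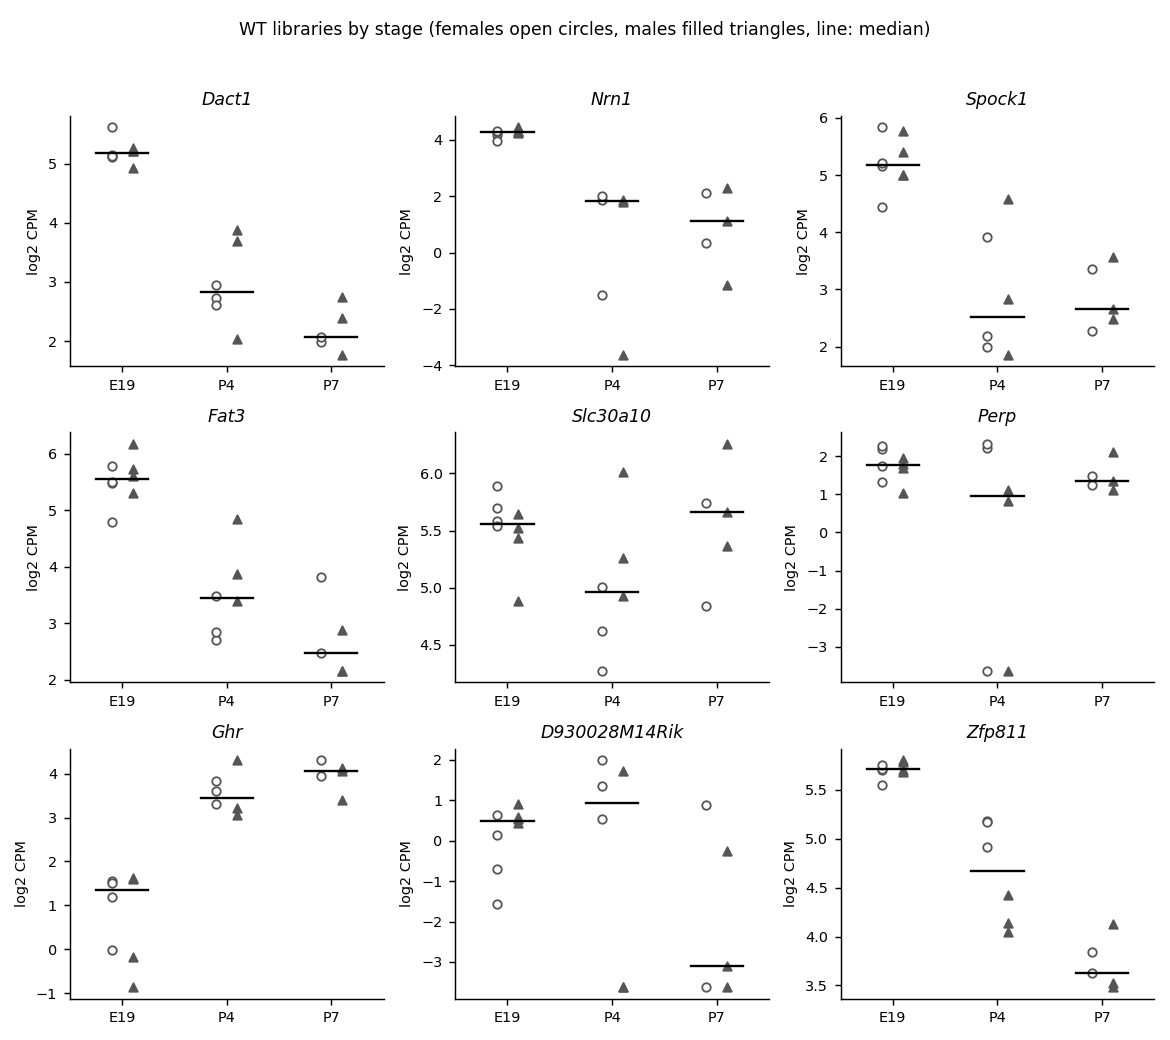
Level of the 9 genes in each WT library at E19, P4 and P7 as log2 CPM, with open circles for females, filled triangles for males and a line at the median of each stage. The lowest points of Nrn1, Perp and D930028M14Rik are libraries with 0 counts, placed by the prior count. Ghr is higher at P4 than at E19, while Dact1, Nrn1, Spock1, Fat3 and Zfp811 are lower at P4, a step that coincides with the change of sequencing round.

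Between WT females and males no gene of the 9 was a DEG at any stage in edgeR, where 0.0461% of genes were at E19, 0% of 19213 at P4 (1398 genes, or 7.28%, at an unadjusted p under 0.05 and 85 by DESeq2) and 0.0247% at P7. An unadjusted p under 0.05 was reached by 3.67% of all genes at E19 and 4.36% at P7, and by 0 of the 9 genes at these stages, against Fat3 and Zfp811 at P4, and DESeq2 called 0 of the 9 at each stage. At P4, Zfp811 was separated by sex, at 36.3, 30 and 36 CPM in females and 16.5, 17.6 and 21.3 CPM in males, as were 15.5% of all genes (0.89 ± 0.200, edgeR adjusted p = 0.565). At E19 the sexes stood at 46.6 to 54.0 and 51.1 to 55.8 CPM. No gene of the 9 was separated by sex at E19 or P7, where 2.44% and 18.5% of all genes were. Fat3 was at 6.47, 7.14 and 11.1 CPM in P4 females and 14.5, 10.5 and 28.7 CPM in males (-1.11 ± 0.452, edgeR adjusted p = 0.681), and Slc30a10 at 32.1, 24.5 and 19.2 CPM against 64.3, 30.3 and 38.1 CPM (-0.80 ± 0.339, edgeR adjusted p = 0.690). Several marker sums were also separated between the WT females and males of P4. Interneuron markers were at 609 to 1180 CPM in females and 352 to 551 CPM in males, and intermediate progenitor markers at 453 to 557 and 251 to 384 CPM. Cell cycle genes were at 1510 to 1840 and 1110 to 1340 CPM. Lower in females were oligodendrocyte lineage markers (737 to 1960 against 2450 to 3370 CPM), mural cell and fibroblast markers (140 to 188 against 273 to 465 CPM) and endothelial markers (50.5 to 72.4 against 104 to 208 CPM). Their part in the sex differences was not tested. The spread between libraries of a group was wider at P4 than at E19, with a median SD over 10960 genes of 0.57 against 0.29 on the log2 scale. For Zfp811, Fat3 and Slc30a10 the SD at P4 was 0.48, 0.48 and 0.46, and for Nrn1, D930028M14Rik and Perp it was 2, 2.05 and 2.14.

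The pathways around these genes were read from lists of their partners and relatives. In both Cux1 KO comparisons at E19, 0 genes of the 7 lists were DEGs in edgeR in either sex, with 0 to 6 genes of a list at an unadjusted p under 0.05. The highest counts were 6 of 23 Wnt genes in females, where 6.87% of all genes reached it, and 5 of 18 testican and matrix genes in males, where 10.4% did. The list medians lay between -0.22 and 0.03. Relatives of the 9 genes gave these values there. Dact2 had 0.22 in females and -0.26 in males, Dact3 -0.12 and -0.08, Fat1 0.04 and 0.10, Fat4 -0.05 and 0.13, and Slc30a1, a zinc exporter, -0.05 and -0.25. Spock2, another testican, had -0.71 ± 0.200 in females and -0.39 ± 0.187 in males. At P4 in Cux1 KO males 0 genes of the 7 lists were called by edgeR as well, with 6 of 18 p53 target genes, 5 of 24 Wnt genes 4 of 18 testican and matrix genes, 3 of 15 genes of the Fat and Dachsous list, 3 of 21 zinc and manganese genes, 1 of 17 neuritin and neurite genes and 1 of 19 growth hormone signalling genes at an unadjusted p under 0.05, where 20.5% of all genes reached it. The list medians at P4 lay between -0.58 and 0.44, where the median of all genes was -0.18. Against the Cux2 KO at P4, Sfrp1, a secreted Wnt antagonist (-1.95 ± 0.282), and Evl, an actin regulator of the Ena/VASP family (1.50 ± 0.207), were DEGs, both with an edgeR adjusted p of 0.0491. They were 1 of 24 Wnt genes and 1 of 15 tested genes of the Fat and Dachsous list.

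Neighbouring genes were examined because the sources used here give neither the strand setting of the counting nor the handling of reads over overlapping genes. They were picked by position. 4930474H06Rik, which lies antisense to Dact1 over 33.7% of its exon bases, had 0 counts in the groups compared. Fars2 overlaps 18.3% of the Nrn1 exon bases and had a log2FC of 0.10 ± 0.107 in Cux1 KO females and -0.01 ± 0.19 in males at E19, beside 0.87 and 0.79 for Nrn1. Gm30177, a long non-coding gene on the other strand over 13.6% of the Nrn1 exon bases, had 0.57 ± 0.332 in females and 0.87 ± 0.229 in males (edgeR adjusted p = 0.751 and 0.239). It was at 3.77 to 4.78 CPM in Cux1 KO males and 1.88 to 2.43 CPM in WT males, without overlap, and at 2.06 to 5.52 and 1.65 to 3.9 CPM in females. The part of reads over these shared exon bases in the Nrn1 values was not tested. Gm2061, over 6.92% of Slc30a10, had 0.40 ± 0.213 and 0.43 ± 0.276. D930028M14Rik lies inside Pou2f2, a POU domain transcription factor gene, on the other strand and shares 0 exon bases with it. Pou2f2 was at 15.5, 11.2, 13.9 and 14.2 CPM in Cux1 KO females and 10.6, 12.4, 12.3 and 7.42 CPM in WT females. In males it was at 19.1, 16.9, 13.2 and 19.4 CPM against 11.6, 9.57, 5.65 and 7.23 CPM, without overlap. Its log2FC was 0.36 ± 0.181 in females and 0.97 ± 0.214 in males, beside 2.35 and 1.41 for D930028M14Rik. At P4 both were absent or nearly so in the Cux1 KO libraries, where Pou2f2 had 0 and 2 counts while WT males had 8.38, 9.24 and 0.833 CPM. Zfp811 lies among other zinc finger genes, and Zfp871, Zfp952, Zfp472, Zfp799 and Zfp870 within 200000 bases had values from -0.08 to 0.24 in females and -0.01 to 0.24 in males at E19, beside 0.61 and 0.53 for Zfp811.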

How the data were processed

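Bulk RNA-seq had been made from 43 libraries of sorted L2/3 neurons in 13 groups of genotype, stage and sex. The deposited table holds raw read counts per gene. Per the labels and methods, the authors aligned reads with HISAT2 to GRCm39, with masked Y chromosome sequence according to sex, and counted them with featureCounts. Here counts were compared with edgeR 4.0.16 in R 4.3.3 (TMM, filterByExpr, quasi-likelihood test, Benjamini-Hochberg over all genes tested), in fits of the compared groups alone. A DEG had an adjusted p under 0.05 and an absolute log2FC above 0.5 at E19 or 1 at P4 and P7. CPM used TMM library sizes, the prior count was 2, the SE of a log2FC was its size over the root of the F statistic, and RPKM used exon lengths of GENCODE M39, which may differ from the authors' annotation. Promoters came from that reference. DESeq2 1.42.0 was an alternative, and fits were tested on simulated data. A gene called within a marker list is not reported here. No column was left unused, and no libraries were duplicates. Genes named besides the 9 were the called pathway members with the smallest adjusted p, their relatives and the most similar genes. The 9 genes and all lists were chosen with earlier results of these data known.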

Additional observations from a re-analysis of the deposited data

Results flagged for a closer look

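In 6 of the 54 groups of 4 libraries examined over the 9 genes at E19, 1 library stood apart from the other 3 by Dixon's criterion, which chance meets in about 1 in 20 groups. Dact1 was at 48.7 CPM in the fourth WT female, above the other WT females. Fat3 was at 43.1 CPM in the first Cux1 KO male, the library that overlapped the WT range. In Cux2 KO females Slc30a10 (38.9 CPM) and Perp (2.28 CPM) were low in the second library and Zfp811 (59.8 CPM) was high in the third. In Cux2 KO males Slc30a10 was low in the first library (37.1 CPM).

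In Cux1 KO males, 5 genes had a mean above WT at E19, for which they had been chosen, and below it at P4. At P4, 42.8% of all genes tested had a log2FC above 0 (median -0.18). The difference in mean CPM, mutant minus WT, at P4 was -6.66 for Dact1 (48.1 at E19), -13.0 for Slc30a10 (28.3), -1.25 for Perp (3.26), -6.62 for Ghr (4.44) and -1.07 for D930028M14Rik (2.73). The Cux1 KO and WT libraries of P4 overlapped for all 5. Dact1 had 1 count and Ghr 0 counts in Cux1 KO replicate 1, and without it their log2FC was -0.48 and -0.11. Perp had 0 counts in WT male replicate 3, and D930028M14Rik had 0 in WT male replicates 1 and 3. The change between stages was not tested, and the allele, CRE and the sequencing round differ between them. Fat3 in the Cux2 KO at P4 was above WT in females (1.91 CPM) and below it in males (-5.91 CPM), a difference for which the interaction gave an edgeR adjusted p of 0.739. In Cux2 KO females Fat3 was below WT at E19 (-9.35 CPM) and above it at P4 (1.91 CPM), which was not tested.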

How the results depend on the processing

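Of 1052 fold changes of the 9 genes refitted under another setting, 34 turned direction, and the causes were not tested. DEG counts were least stable at P4. With DESeq2 and its fold change prior they were 2273 for Cux1 KO males at P4 (with 1 of the 9 genes), 42 and 75 for Cux2 KO females and males at P4, 2617 for Cux1 KO against Cux2 KO (589 in edgeR, and 1 of the 9 genes), 85 and 12 between WT sexes at P4 and P7, 22 (females) and 66 (males) for the E19 Cux2 KO (5 and 21 in edgeR), and 29 (females) and 73 (males) for the E19 Cux1 KO (10 and 17 in edgeR). DESeq2 without the prior, chosen after seeing the data because the prior could not be fitted to the interaction, called 273 genes there. With every group of the stage fitted together the counts were 2596 for Cux1 KO males at P4 (with 1 of the 9 genes), 1 and 4 for Cux2 KO females and males at P4, 2020 for Cux1 KO against Cux2 KO, 7 between WT sexes at P4, 8 for Cux2 KO females at E19 and 5 for Cux1 KO males at E19. Without the filter on low counts they were 46 and 63 for Cux2 KO at E19, 63 and 91 for Cux1 KO at E19, 0 for Cux1 KO against Cux2 KO and 5 between WT sexes at P4.

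The replicate block gave 10 DEGs for Cux2 KO males at E19, 46 for Cux1 KO males at E19, 0 for Cux1 KO against Cux2 KO and 0 between WT sexes at P7. With the block Nrn1 in Cux1 KO males at P4 became -0.67 and Perp in Cux2 KO females at P4 became 0.41. In the tested comparisons it changed the call of no gene of the 9. Deviations of libraries with the same number had a mean r from -0.0521 to 0.191 over the comparisons. Between WT sexes at P7 both of the 2 pairs exceeded 0.1 (0.157 and 0.225). In no comparison with 3 or more pairs did every pair exceed 0.1.

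Leaving out 1 library at a time gave 0 to 639 DEGs for Cux1 KO males at P4, the highest without the second Cux1 KO library. It gave 0 to 1 for Cux2 KO males at P4, 3 to 14 (females) and 9 to 19 (males) for the E19 Cux2 KO, 0 to 3351 for Cux1 KO against Cux2 KO with 0 to 4 of the 9 genes, 223 to 497 for WT P7 against P4 with 0 to 1 of the 9 genes, 0 to 3 between WT sexes at P7, 0 to 4 for the interaction, and 2 to 30 and 0 to 16 for Cux1 KO females and males at E19. Where 1 library was left in a group, it was assumed to vary like the other group. In Cux1 KO males at P4, Nrn1 ran from -1.06 to 0.87 and Spock1 from -0.77 to 1.64. In Cux2 KO females at P4, Nrn1 ran from -0.14 to 0.80, Spock1 from -0.08 to 1.81, Perp from -0.59 to 0.45 and Ghr from -0.21 to 0.09. In Cux2 KO males at P4, Dact1 ran from -0.80 to 0.25, Nrn1 from -1.25 to 0.61, Slc30a10 from -0.61 to 0.27 and Ghr from -0.72 to 0.27. At E19, Spock1, Perp and Ghr in Cux2 KO females ran from -0.13 to 0.31, -0.04 to 0.30 and -0.34 to 0.05, and Nrn1 and Spock1 in Cux2 KO males from -0.16 to 0.08 and -0.29 to 0.09. D930028M14Rik in WT P4 against E19 ran from -0.05 to 0.97. Scaling by DESeq2 size factors left the median of all genes in Cux1 KO males at P4 at -0.18. With 2 Cux1 KO libraries at P4, the design resolves only large differences in the low genes.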

Other observations

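Over the means of the 13 groups, the genes most like each of the 9 among 23958 were found by Pearson's r of log2 CPM, which is a description over groups that share stage and sequencing round. Dact1 followed Arnt, a partner of the hypoxia-inducible factors (r = 0.9916), and Lmbr1l (0.9881). Spock1 followed Inhba, a subunit of activin and an upper-layer marker (0.952), and Gm11557 (0.9507). Fat3 followed Gm15911 (0.9707) and Rap2c, a small GTPase (0.9694), and Ghr followed Gcdh, an enzyme of lysine breakdown (0.9584), and Calr4 (0.953). Zfp811 followed 6330403K07Rik (0.9727) and Akirin2 (0.9587). Nrn1 was closest to Gm44911 (0.9892) and Gm44414 (0.986), Perp to Gm37090 (0.9826) and Gm49396 (0.9749), and D930028M14Rik to 1700016H13Rik (0.9208) and Abracl (0.91). Slc30a10 had no close match above 0.8878.

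Between P4 and P7 in WT neurons, several genes of the pathway lists passed both thresholds in edgeR. Hapln1, a link protein of perineuronal matrix (log2FC 2.07, adjusted p = 0.00756), Nr4a1, an activity-regulated nuclear receptor (2.46, adjusted p = 0.0277), and the metallothioneins Mt1 (1.03, adjusted p = 0.0055) and Mt3 (1.05, adjusted p = 0.00438) were higher at P7. Sfrp1 (-1.31, adjusted p = 0.0337) and Tnc, a matrix glycoprotein gene (-1.02, adjusted p = 0.0267) were lower. These were 6 genes over the 7 lists, and 2.05% of all genes passed. In the same libraries 8 of 9 microglia markers, the oligodendrocyte lineage markers Mbp and Cnp and the astrocyte markers Gfap and Aqp4 were also higher DEGs at P7, and astrocyte markers summed to 3680 to 6720 CPM at P4 and 8140 to 12100 CPM at P7. The part of these cells in the values above was not tested.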
